A study of Arabidopsis thaliana with 27 samples.

Results

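CCS and ARPN are the 2 genes described here. Both encode proteins that handle copper, and both transcripts are known targets of microRNAs that plants make when copper is scarce. Each was taken as the probe set whose only gene symbol in the platform annotation is CCS or ARPN, and each name matched 1 probe set. They are 2 of 13350 genes that the annotation names in this way. CCS is the locus AT1G12520 on chromosome 1, and ARPN is AT2G02850 on chromosome 2. The rule that picks these probe sets reads names and no measured values, but the genes were proposed with earlier results of these data known.

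Transcript levels were measured in Arabidopsis thaliana on 27 Affymetrix ATH1 arrays, in 9 groups of 3. Inflorescences with flowers of stages 1 to 12 came from dcl1-7, dcl4-2 and rdr6-15 plants and from Col-0 plants, and rosette leaves 5 to 8 came from the same 4 genotypes. Col-0, the wild type, was sampled as inflorescence in a pair of sets, and by the labels set B belongs to dcl1-7 and set A to the other mutants. In leaf a single Col-0 group served all 3 mutants. No treatment, plant age or growth condition is stated in the labels, and each replicate was a pool of at least 9 plants by the series' design text. DCL1 is the RNase III enzyme that cuts microRNAs out of hairpin precursors, and dcl1-7 is known as a partial loss-of-function allele, so some microRNA is still made. DCL4 cuts small interfering RNAs from the double-stranded RNA that the polymerase RDR6 makes, so dcl4-2 and rdr6-15 are affected in another branch of the machinery. None of the mutants is specific to a cell type.

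Copper-responsive microRNAs form part of a saving programme. Under low copper the transcription factor SPL7 switches on miR398, miR408 and related microRNAs, which cut the transcripts of dispensable copper proteins. CCS, the copper chaperone for superoxide dismutase, hands copper to the copper/zinc superoxide dismutases and is a target of miR398. ARPN, or plantacyanin, is a small blue copper protein of the cell wall space, known from the transmitting tract of the pistil, and is a target of miR408.

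Values are log2 RMA summaries, 1 per probe set and array, so a difference of 1 is a doubling. Differences were tested with limma over 22746 probe sets, and "called" means a Benjamini-Hochberg adjusted p under 0.05. The lowest correlation between arrays of a group was 0.980. In the gene lists below, a gene counts as measured if a probe set with a single symbol in the annotation matched it. Genes not counted may still have a probe set on the array. The 5 measured genes of the anther, tapetum and pollen list (of 18 listed) averaged 6.84 to 7.32 in the inflorescence groups and 5.79 to 5.92 in the leaf groups. Of them AMS, EMS1 and SPL averaged higher in every inflorescence group than in any leaf group, while ROXY1 and ROXY2 overlapped between the organs. The 4 measured leaf photosynthesis genes (of 22) averaged 12.61 to 12.94 in the inflorescence groups and 13.04 to 13.39 in the leaf groups. Among these, LHCB4.1 and LHCB4.2 averaged lower in every inflorescence group than in any leaf group, while the group means of RCA and LHCB4.3 overlapped between the organs. The 2 measured floral organ and meristem genes (of 13), UFO and CLV3, were not higher in inflorescence, with 5.55 to 5.68 in inflorescence groups and 5.73 to 5.90 in leaf groups. Both had weak signals, below the median over all probe sets on every array. The mutated genes themselves are not analysed here.

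CCS was highest in dcl1-7 in both organs. On the leaf arrays it was at 11.68, 10.87 and 10.98 in dcl1-7, at 9.71, 10.01 and 9.97 in dcl4-2, and at 9.60, 9.37 and 9.13 in rdr6-15, against 9.95, 9.90 and 10.15 in Col-0. All 3 dcl1-7 leaves lay above each of the other 9 leaf arrays. On the inflorescence arrays it was at 10.64, 10.44 and 10.86 in dcl1-7, against 10.12, 10.08 and 10.31 in Col-0 set B. It was at 8.87, 9.24 and 9.39 in dcl4-2 inflorescences and at 9.63, 9.53 and 9.50 in rdr6-15 inflorescences, against 9.83, 9.75 and 9.79 in Col-0 set A. Here too the dcl1-7 arrays lay above each of the other 12 of the organ, and the dcl4-2 arrays lay below each of the others. Of all probe sets, 2.00% had the dcl4-2 inflorescences below every other inflorescence array.

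ARPN was above all a transcript of the inflorescence, and within each organ it too was highest in dcl1-7. On the inflorescence arrays it was at 11.56, 11.79 and 11.91 in dcl1-7, against 10.50, 10.30 and 10.29 in Col-0 set B. It was at 11.15, 11.21 and 11.45 in dcl4-2 inflorescences and at 10.70, 10.62 and 10.62 in rdr6-15 inflorescences, against 11.39, 11.24 and 11.36 in Col-0 set A. The dcl1-7 arrays lay above each of the other 12, while the dcl4-2 and set A values overlapped. On the leaf arrays ARPN was at 7.72, 7.83 and 8.24 in dcl1-7, at 7.25, 7.45 and 7.34 in dcl4-2 and at 6.96, 7.57 and 7.56 in rdr6-15, against 6.69, 7.31 and 7.37 in Col-0. The dcl1-7 leaves were again above the other 9 leaf arrays, and the other leaf groups overlapped. Among all probe sets tested, 4.82% had the dcl1-7 leaf arrays above every other leaf array, 1.43% had the dcl1-7 inflorescence arrays above every other inflorescence array, and 0.374% (85 probe sets) had both.

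**Figure D1:**
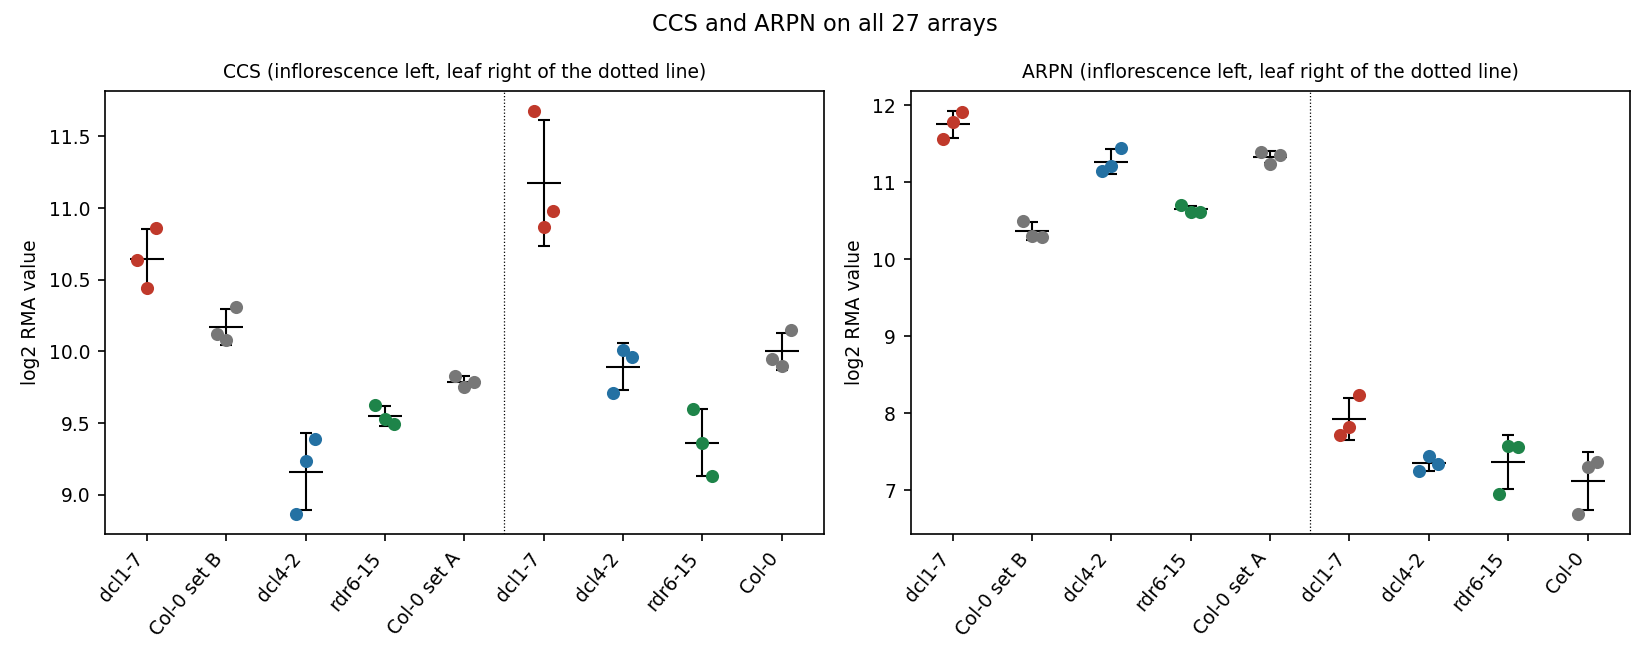
Log2 RMA value (y axes) of CCS (left panel) and ARPN (right panel) on each array, by group (x axes), with inflorescence groups left and leaf groups right of the dotted line. Points are arrays, and black marks are the mean ± SD of 3 arrays. The dcl1-7 points lie above all other points of their organ in both panels, and ARPN lies between 10.29 and 11.91 in inflorescence and between 6.69 and 8.24 in leaf.

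In leaf, the comparison of dcl1-7 with Col-0 asks what changes when microRNA production is impaired. Both genes were called higher, where 9.42% of all probe sets were called and 4.18% were called higher. CCS averaged 11.18 ± 0.44 in dcl1-7 leaves, against values of 9.90 to 10.15 with an SD of 0.13 in Col-0 leaves (n = 3 each), a rise of 1.18 (95% interval 0.75 to 1.60), or 2.26-fold, with a limma adjusted p of 0.00366. By size it was the 190th largest of all rises. ARPN averaged 7.93 ± 0.27 in dcl1-7 leaves and 7.12 ± 0.38 in Col-0 leaves, a rise of 0.81 (interval 0.34 to 1.27), or 1.75-fold, with a limma adjusted p of 0.0337. It was the 494th largest rise.

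These 2 leaf results differed in how far they rested on single arrays. CCS was called whichever of the 6 arrays was left out, with rises of 0.93 to 1.33. Its highest value came from dcl1-7 leaf replicate 1, and without that array the rise was 0.93 (limma adjusted p = 0.00297). The ARPN call was lost in 4 of 6 such fits, with an adjusted p of 0.133 without dcl1-7 replicate 3, 0.128 without Col-0 replicate 1, 0.0721 without dcl1-7 replicate 2 and 0.0594 without Col-0 replicate 2. Its rise stayed between 0.59 and 0.93, and Col-0 replicate 1 held the lowest ARPN value of all arrays. Stress and defence genes moved with this comparison: the 6 measured genes of that list (of 18) averaged 11.34 to 12.63 on the dcl1-7 leaf arrays and 9.73 to 10.35 on the Col-0 leaf arrays, and their part in the result was not tested. The 3' minus 5' signal difference of control transcripts, a gauge of RNA degradation, was 2.99 to 3.56 on dcl1-7 leaf arrays and 2.86 to 3.09 on Col-0 leaf arrays. With that difference as a covariate CCS rose by 1.16 (limma adjusted p = 0.0218), and ARPN was at 0.92 (adjusted p = 0.06).

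**Figure D2:**
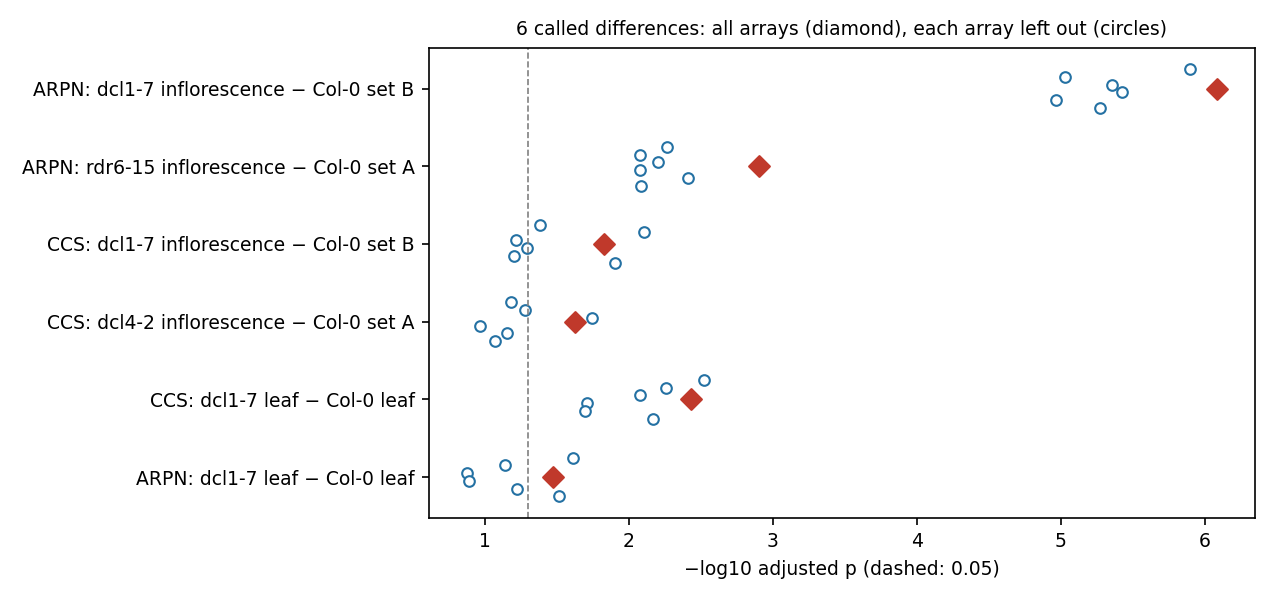
The x axis is minus log10 of the limma adjusted p for 6 called differences (y axis), with all arrays (diamonds) and with each array of the groups compared left out in turn (circles), and the dashed line marks 0.05. The circles of both ARPN inflorescence differences and of the CCS rise in dcl1-7 leaf stay right of the line, and the other 3 differences have circles on both sides.

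In dcl1-7 inflorescences both genes were called higher than in set B, the control the labels name, where 23.4% of all probe sets were called and 12.6% were called higher. ARPN averaged 11.75 ± 0.18 in dcl1-7 inflorescences and 10.36 ± 0.12 in set B (SD, n = 3 each), a rise of 1.39 (95% interval 1.18 to 1.60), or 2.62-fold, with a limma adjusted p of 8.17e-07. It ranked 122nd of all probe sets by p. CCS averaged 10.65 ± 0.21 in dcl1-7 inflorescences and 10.17 ± 0.12 in set B, a rise of 0.48 (interval 0.20 to 0.75), or 1.39-fold, with a limma adjusted p of 0.0148. The ARPN call held whichever array was left out. The CCS call was lost in 3 of 6 such fits, with an adjusted p of 0.0607 without dcl1-7 replicate 3, 0.0621 without set B replicate 2 and 0.0511 without set B replicate 1. The control 3' minus 5' difference was 3.01 on dcl1-7 replicate 3 and 2.99 on set B replicate 3, against 1.81 to 2.02 on the other arrays of these groups. Those replicates held the highest CCS value of their group.

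The Col-0 sets differed from each other in both genes, and in opposite directions. CCS was higher in set B than in set A by 0.38 (SE 0.13, limma adjusted p = 0.0234), and ARPN was lower in set B by 0.97 (SE 0.10, adjusted p = 2.87e-06), and the sets overlapped for neither gene. Among all probe sets 27.4% lay wholly higher and 29.8% wholly lower in set B. Between these sets of wild-type plants 47.7% of all probe sets were called, so both genes belong to a large class. Set against set A, dcl1-7 inflorescences were higher by 0.86 in CCS (SE 0.13, adjusted p = 0.000155) and by 0.42 in ARPN (SE 0.10, adjusted p = 0.00462), where 35.2% of all probe sets were called. Both rises were thus called against either set in the fit of the inflorescence arrays. In the fit of all arrays the ARPN rise against set A (adjusted p = 0.0652) and the CCS rise against set B (adjusted p = 0.0564) were not called. Against set B the larger rise was that of ARPN, and against set A that of CCS. The 3 measured carpel genes (of 12) averaged 6.68 in dcl1-7 inflorescences, 7.13 in set B and 6.51 in set A. The 5 anther, tapetum and pollen genes averaged 6.84 in dcl1-7, 6.88 in set B and 7.32 in set A. By their means in dcl1-7, EMS1 and SPL lay between the sets, and AMS, ROXY1 and ROXY2 lay below both. The labels give both sets the same range of flower stages and do not say how the sets differ, and the part of these marker differences in the results was not tested. In such bulk samples fewer cells of a type and less RNA per cell cannot be told apart.

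In dcl4-2 inflorescences CCS fell and ARPN did not differ beyond its error. CCS averaged 9.16 ± 0.27 in dcl4-2 and 9.79 ± 0.04 in set A (SD, n = 3 each), a difference of −0.63 (95% interval −0.90 to −0.35), with a limma adjusted p of 0.0235, where 2.08% of all probe sets were called and 0.972% were called lower. It was the 199th largest fall. The call was lost when any array but dcl4-2 replicate 3 was left out, at differences of −0.66 to −0.48. The adjusted p was 0.0653 without dcl4-2 replicate 1, 0.0527 without dcl4-2 replicate 2, and 0.108, 0.0703 and 0.0844 without set A replicates 1, 2 and 3. The lowest CCS value was that of dcl4-2 replicate 1, and dcl4-2 replicate 2, with a control 3' minus 5' difference of 3.12 against 2.01 on both other arrays of its group, lay in the middle. ARPN averaged 11.27 ± 0.16 in dcl4-2 and 11.33 ± 0.08 in set A, a difference of −0.06 with an interval of −0.28 to 0.16 (adjusted p = 0.849). With set B as the control CCS was lower in dcl4-2 by more (−1.01, adjusted p = 1.68e-05), and ARPN turned to 0.91 (adjusted p = 4.83e-06). No share over all probe sets is given here for that control, and between the Col-0 sets 47.7% of all probe sets were called.

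In rdr6-15 inflorescences ARPN fell, and CCS was lower on each array without being called. ARPN averaged 10.65 ± 0.05 in rdr6-15 and 11.33 ± 0.08 in set A (SD, n = 3 each), a fall of 0.68 (95% interval −0.90 to −0.47), or to 0.623 of the set A level, with a limma adjusted p of 0.00124. Here 8.66% of all probe sets were called and 4.49% were called lower. The call held whichever array was left out, with adjusted p of 0.00388 to 0.00829. The direction reversed with set B as the control, against which ARPN was higher by 0.28 (adjusted p = 0.0282). In the limma fit of all arrays that difference from set B was not called (adjusted p = 0.191). No share over all probe sets is given here for that control, and between the Col-0 sets 47.7% of all probe sets were called. CCS was at 9.55 ± 0.07 in rdr6-15 and 9.79 ± 0.04 in set A, a difference of −0.24 with an interval of −0.51 to 0.04 (adjusted p = 0.308). All rdr6-15 values lay below all of set A in both genes, as in 14.6% of all probe sets. The rdr6-15 and dcl4-2 comparisons share the set A arrays, so their values are not independent of each other.

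In leaf neither siRNA pathway mutant had a called change in either gene, where limma called 0% of all probe sets in dcl4-2 and 0.0176% in rdr6-15. Of these 4 differences 1 had an unadjusted p under 0.05, that of CCS in rdr6-15, which was −0.64 (95% interval −1.06 to −0.21), with all 3 rdr6-15 values below all 3 Col-0 values, as in 4.03% of all probe sets. Its unadjusted limma p was 0.00704 and its adjusted p 1, although by size it was the 37th largest fall. The values averaged 9.36 ± 0.23 in rdr6-15 leaves (SD, n = 3), and those of Col-0 leaves lay between 9.90 and 10.15. In dcl4-2 leaves CCS differed by −0.11 (interval −0.53 to 0.32). ARPN differed by 0.23 (interval −0.24 to 0.69) in dcl4-2 leaves and by 0.24 (interval −0.22 to 0.70) in rdr6-15 leaves, with overlapping values. All 3 leaf comparisons share the Col-0 arrays.

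**Figure D3:**
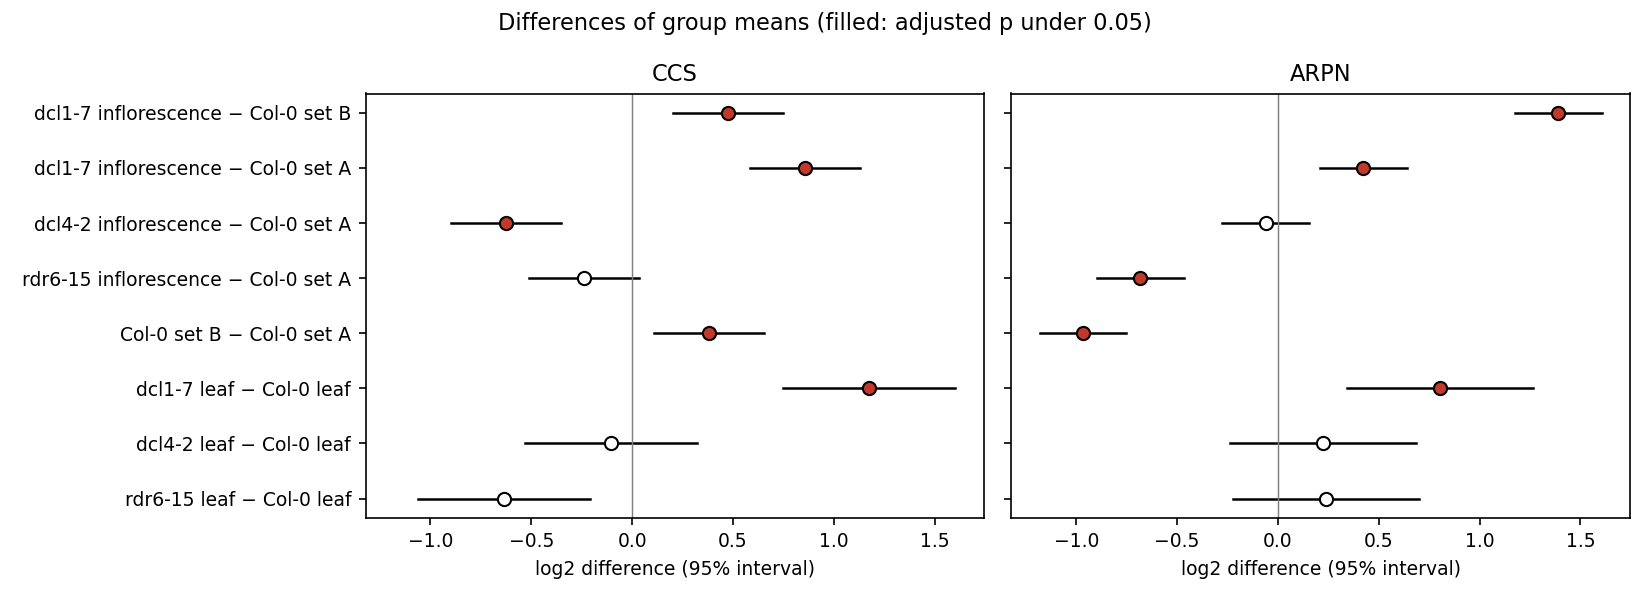
Log2 differences of group means (x axes) for CCS (left) and ARPN (right) in 8 comparisons (y axis), with 95% intervals of the limma fit as lines and filled points where the adjusted p was under 0.05. The dcl1-7 points lie right of 0 in both panels in both organs, at 0.48 to 1.18 for CCS and 0.42 to 1.39 for ARPN, and the called points left of 0 are CCS in dcl4-2 inflorescence, ARPN in rdr6-15 inflorescence and ARPN in set B against set A.

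Mutants were also set against each other directly, which tests whether the dcl1-7 level stands apart from the siRNA pathway mutants. In leaf CCS was higher in dcl1-7 than in dcl4-2 by 1.28 (SE 0.20, limma adjusted p = 0.00222) and than in rdr6-15 by 1.81 (SE 0.20, adjusted p = 0.000602), where 10.9% and 6.26% of all probe sets were called. The second of these was the 46th largest rise. ARPN in leaf was at 0.58 (adjusted p = 0.106) over dcl4-2 and 0.57 (adjusted p = 0.151) over rdr6-15, and neither was called, although no values overlapped, as in 12.3% and 9.64% of all probe sets. In inflorescence CCS was higher in dcl1-7 by 1.48 over dcl4-2 and by 1.1 over rdr6-15 (SE 0.13 each, adjusted p = 1.53e-06 and 1.52e-05). ARPN was higher by 0.48 over dcl4-2 and by 1.11 over rdr6-15 (SE 0.10 each, adjusted p = 0.00176 and 1.96e-06). In these inflorescence comparisons 37.1% and 41.2% of all probe sets were called. They set dcl1-7, which has set B as its control, against mutants that have set A, so the difference between the sets cannot be told apart from that between the genotypes. Each effect was also taken against its own Col-0 set, a comparison added after seeing the data. It subtracts the set B minus set A difference from the direct difference. It thus presumes that the difference between the sets acts alike on all mutants, which was not tested. Against its own set, the dcl1-7 effect exceeded the dcl4-2 effect by 1.1 in CCS (SE 0.18, adjusted p = 0.00145) and by 1.45 in ARPN (SE 0.14, adjusted p = 4.01e-05), where 12.8% of all probe sets were called. It exceeded the rdr6-15 effect by 0.71 in CCS (SE 0.18, adjusted p = 0.0171) and by 2.07 in ARPN (SE 0.14, adjusted p = 1.53e-06), where 13.8% were called. Between the siRNA pathway mutants, ARPN was lower in rdr6-15 than in dcl4-2 inflorescences by 0.62 (interval −0.84 to −0.41, adjusted p = 0.00111), where 15.4% were called. CCS was at 0.39 in the same comparison (interval 0.11 to 0.66, adjusted p = 0.057).

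The organs differed strongly in ARPN and little in CCS. ARPN was higher in Col-0 inflorescences than in Col-0 leaves by 4.21 with set A (SE 0.17, 18.5-fold, limma adjusted p = 1.78e-15) and by 3.24 with set B (9.46-fold, adjusted p = 1.75e-13), where 60.0% and 58.9% of all probe sets were called. In the mutants the organ difference of ARPN was 3.83 in dcl1-7, 3.92 in dcl4-2 and 3.29 in rdr6-15, all called, as were 65.1%, 61.3% and 60.1% of all probe sets. The median over all probe sets was 6.93 to 7.00 on the leaf arrays and 7.04 to 7.17 on the inflorescence arrays, and with each array centred on it the CCS difference with set A was −0.38 (adjusted p = 0.0475) and thus called. CCS differed between Col-0 inflorescence and Col-0 leaf by −0.21 with set A (interval −0.56 to 0.14) and by 0.17 with set B (interval −0.18 to 0.52), and without that centring neither was called. It was lower in the inflorescence than in the leaf of dcl4-2 by 0.73 (difference −0.73, adjusted p = 0.000743) and of dcl1-7 by 0.53 (difference −0.53, adjusted p = 0.00942). In rdr6-15 the CCS difference was 0.19 (interval −0.17 to 0.54).

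Whether a mutant effect differed between the organs was tested as an interaction over all 27 arrays. For CCS the dcl1-7 rise was smaller in inflorescence (against set B) than in leaf by 0.70 (difference −0.70, SE 0.24, limma adjusted p = 0.0386), where 22.3% of all probe sets were called. With set A as the inflorescence control the difference was −0.32 (adjusted p = 0.411) and was not called, where 16.7% of all probe sets were. For ARPN the dcl1-7 interaction was 0.59 with set B (adjusted p = 0.087) and −0.38 with set A (adjusted p = 0.31), neither called. For ARPN the rdr6-15 effect was lower in inflorescence than in leaf by 0.92 (difference −0.92, SE 0.24, adjusted p = 0.0419), where 2.45% were called. That result rested on set A: with set B, added after seeing the data, the ARPN difference was 0.04 (interval −0.45 to 0.54, adjusted p = 0.919), where 38.6% of all probe sets were called. For CCS the rdr6-15 difference was not called with either set (adjusted p = 0.533 with set A and 0.972 with set B). The dcl4-2 interactions were called for neither gene with set A, at −0.52 in CCS (adjusted p = 0.69) and −0.29 in ARPN (adjusted p = 0.928), where 0.224% of all probe sets were called. With set B they were called for both, at −0.90 in CCS (adjusted p = 0.00474) and 0.68 in ARPN (adjusted p = 0.0304), where 34.2% were.

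Ordered by mean level, CCS ran from dcl1-7 leaf (11.18) and dcl1-7 inflorescence (10.65) through set B (10.17), Col-0 leaf (9.90 to 10.15), dcl4-2 leaf (9.90), set A (9.79), rdr6-15 inflorescence (9.55) and rdr6-15 leaf (9.36) to dcl4-2 inflorescence (9.16). Neighbours, paired by the order of these same means, were tested in the limma fit of all arrays. The pairs were thus chosen from the values tested, so these adjusted p values cannot establish the order. That fit called 1 pair, dcl1-7 leaf over dcl1-7 inflorescence (adjusted p = 0.00942), where 65.1% of all probe sets were called. In that fit dcl1-7 inflorescence over set B was at an adjusted p of 0.0564. ARPN ran from dcl1-7 inflorescence (11.75) through set A (11.33), dcl4-2 inflorescence (11.27), rdr6-15 inflorescence (10.65) and set B (10.36) to dcl1-7 leaf (7.93), rdr6-15 leaf (7.36), dcl4-2 leaf (7.35) and Col-0 leaf (7.12). Here the called neighbours were dcl4-2 over rdr6-15 inflorescence (adjusted p = 0.0177), set B over dcl1-7 leaf (adjusted p = 2.66e-11), and dcl1-7 leaf over rdr6-15 leaf (adjusted p = 0.029, against 0.151 in the fit of the leaf arrays). In the fits by organ 15.4% of all probe sets were called between rdr6-15 and dcl4-2 inflorescence and 6.26% between dcl1-7 and rdr6-15 leaf. For set B over dcl1-7 leaf no share is given here. Across the leaf groups the means of CCS spanned 1.81, a range at or above that of 99.6% of all probe sets, and those of ARPN 0.81, at or above that of 94% of them. Across the inflorescence groups they spanned 1.48 for CCS and 1.39 for ARPN, at or above 90.4% and 88.8% of all probe sets. The SD within leaf groups was 0.27 for CCS and 0.30 for ARPN, against a median of 0.17 over all probe sets. Within inflorescence groups it was 0.17 for CCS and 0.13 for ARPN, against a median of 0.12. The group means of CCS and ARPN correlated at −0.11 over the 9 groups, at 0.81 over the 4 leaf groups and at 0.23 over the 5 inflorescence groups, a description of few points in which groups of a tissue share their plants' organ and their normalization.

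Other targets of copper-responsive microRNAs were looked for in a list of 12, the others being superoxide dismutases, laccases and AT3G15640. Of these, 3 had a probe set with a single symbol, CCS, ARPN and AT3G15640. AT3G15640 was at 8.44, 7.80 and 8.69 in dcl1-7 leaves, against 8.45, 8.82 and 8.61 in Col-0 leaves, with overlapping values and a difference of −0.32 (SE 0.19, limma adjusted p = 0.363). In dcl1-7 inflorescences it was at 9.80, 9.72 and 9.18, against 9.69, 9.72 and 9.01 in set B, a difference of 0.10 (SE 0.28, adjusted p = 0.873). The lowest inflorescence values of this probe set came from dcl4-2 replicate 2 (8.70), set B replicate 3 (9.01) and dcl1-7 replicate 3 (9.18), the 3 inflorescence arrays with a control 3' minus 5' difference of 2.99 to 3.12 where the others had 1.81 to 2.28. The list's called members in the mutant comparisons were CCS or ARPN themselves, so its counts repeat their calls. They were 2 of 3 higher in dcl1-7 leaf, with a median of 0.81 (0.02 over all probe sets, 4.18% of which were called higher), and 2 of 3 higher in dcl1-7 inflorescence against set B, with a median of 0.48 (−0.01 over all, 12.6% called higher). Against set A they were also 2 of 3, with a median of 0.42 (−0.02 over all, 17.2% called higher). In dcl4-2 and in rdr6-15 inflorescence 1 of 3 was lower, where 0.972% and 4.49% of all probe sets were called lower.

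Among 6 measured targets of other microRNAs (of 71 listed), 4 rose in dcl1-7 leaf and 4 in dcl1-7 inflorescence against set B, with medians of 0.73 and 0.69, where 4.18% and 12.6% of all probe sets were called higher. They were AGL16, a MADS-box gene and target of miR824, PHV, a leaf polarity gene and target of miR166, and the ATP sulfurylases APS3 and APS4, known as targets of miR395. AGL16 rose by 1.02 in leaf and by 2.04 in inflorescence, PHV by 0.99 and 0.80, APS3 by 0.46 and 0.58, and APS4 by 1.12 and 0.92. The APS3 call in leaf was lost without dcl1-7 replicate 1 (adjusted p = 0.0537) or 2 (0.109) and without Col-0 replicate 1 (0.12) or 2 (0.0962). Set against set A, where 17.2% of all probe sets were called higher, the count was 2 of 6, AGL16 (2.43) and APS4 (0.94), while PHV was at 0.26 (adjusted p = 0.234) and APS3 at −0.20 (adjusted p = 0.116). SMZ and SNZ, floral repressors targeted by miR172, were not called in dcl1-7 in either organ. APS4 also fell in rdr6-15 inflorescence, by 0.93 (SE 0.17, adjusted p = 0.00429).

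**Figure D4:**
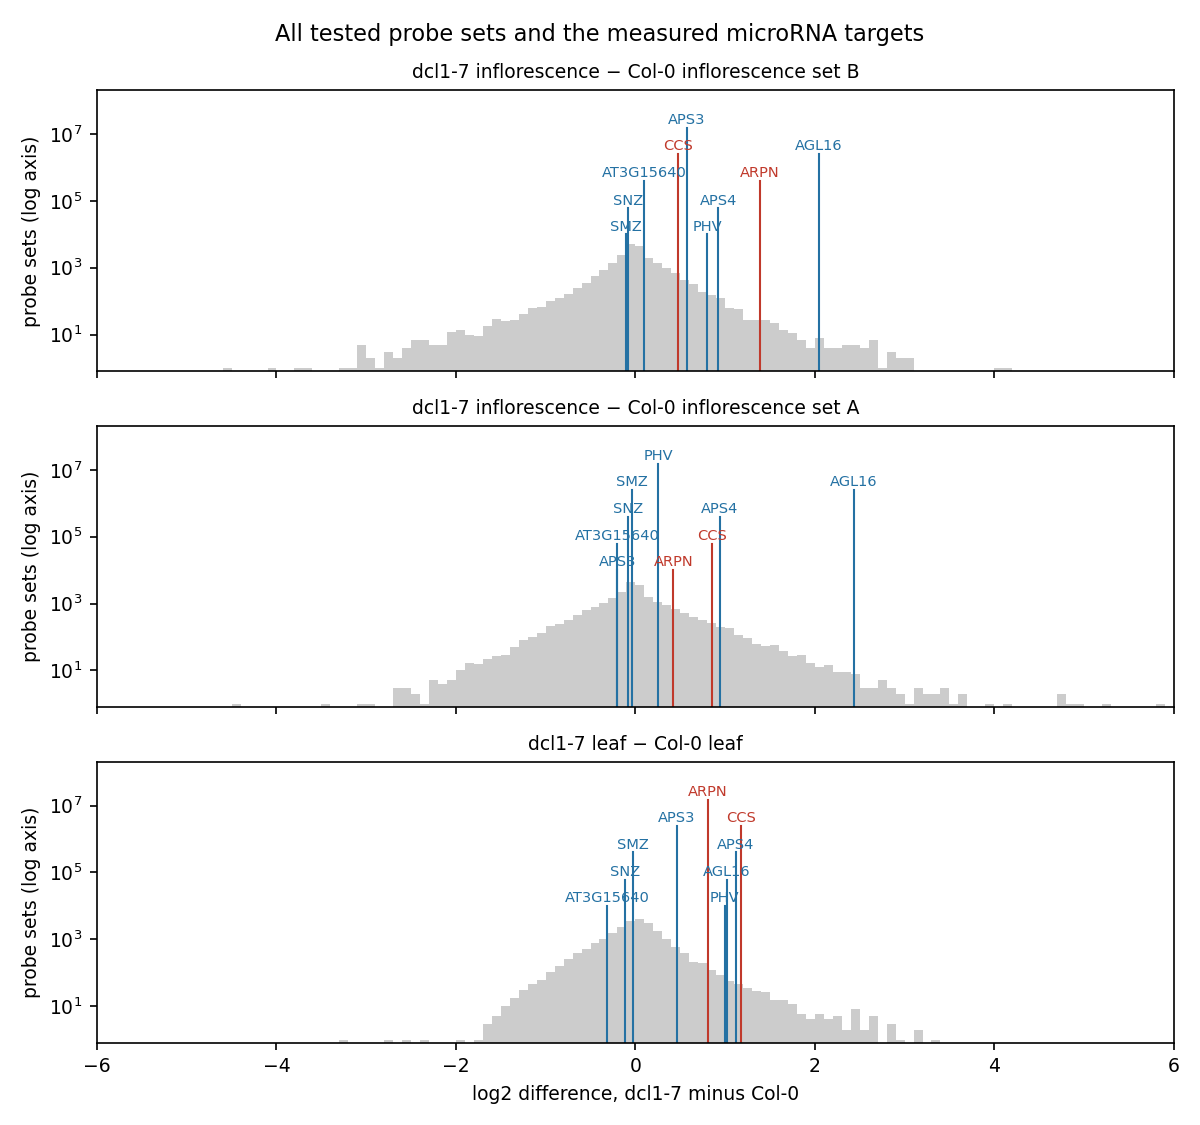
Number of probe sets (y axes, log scale) by log2 difference of dcl1-7 and Col-0 (x axes) in inflorescence against set B (top), against set A (middle) and in leaf (bottom), with red lines at CCS and ARPN and blue lines at 7 other microRNA targets. CCS stands at 0.48, 0.86 and 1.18 and ARPN at 1.39, 0.42 and 0.81 in the 3 panels, on the right side of distributions whose medians lie within 0.02 of 0.

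Genes for copper delivery and for other copper proteins had few members matched to a probe set with a single symbol. Of 21 listed uptake transporters, chaperones, pumps and regulators 1 was measured, CUTA, a copper-binding protein of the plastid. It was not called in dcl1-7 leaf (0.32, SE 0.12, limma adjusted p = 0.116) or in dcl1-7 inflorescence against set B (−0.07, adjusted p = 0.728). It stood at 9.95 in dcl1-7 inflorescences, 10.02 in set B and 9.02 in set A, so that dcl1-7 and set B were each called above set A. Against set A 35.2% of all probe sets were called in dcl1-7 and 47.7% in set B. Of 22 blue copper proteins and copper oxidases 6 were measured. Besides ARPN, 1 was called in a mutant against its labelled control, in dcl1-7 inflorescence, where 23.4% of all probe sets were called and 12.6% called higher. That gene, sks18, a multicopper oxidase-like relative of SKU5, was at 7.22, 7.07 and 7.27 in dcl1-7 inflorescences and at 5.49, 5.64 and 6.01 in set B, a rise of 1.48 (SE 0.18, adjusted p = 6.53e-05). In set A it was at 8.88, 8.63 and 8.82, from which dcl1-7 differed by −1.58 (adjusted p = 1.79e-05), so the direction for sks18 turned with the control set, which that of ARPN did not. SKU5 itself, which shapes directional root growth, was at −0.12 against set B (adjusted p = 0.399) and at −0.64 against set A (adjusted p = 9.85e-05). LAC16, sks15 and sks16, whose signals lay below the median over all probe sets on every array, were called in none of the 6 mutant comparisons. The metallothionein MT1C, the 1 measured of 5, was at 10.69 in dcl1-7 inflorescences, 11.37 in set B and 10.09 in set A, a fall of 0.68 against set B (adjusted p = 0.0368) and a rise of 0.60 against set A (adjusted p = 0.0447). The call against set B was lost without dcl1-7 replicate 1 (−0.35, adjusted p = 0.0892), set B replicate 1 (−0.57, adjusted p = 0.133) or set B replicate 3 (−0.69, adjusted p = 0.0629). CSD1, CSD2 and the other superoxide dismutases that CCS serves are not analysed here.

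The genes most like each member were named by the correlation of group means over the 9 groups, among 5158 genes whose group means spanned at least 1. For CCS these were AT4G16000 (r = 0.927), NAI1, a transcription factor needed for ER bodies (r = 0.917), AT2G38240 (r = 0.889), AT5G52790 (r = 0.857) and AT2G43535 (r = 0.857). NAI1 averaged 5.98 in dcl1-7 leaf and 5.44 in dcl1-7 inflorescence and 4.85 to 5.22 in the other 7 groups. Its means spanned 1.13, and it reached the minimum span of 1 only through dcl1-7 leaf. The NAI1 signal lay below the median over all probe sets on every array. AT2G38240 averaged 9.18 in dcl1-7 leaf and 8.24 in dcl1-7 inflorescence and 6.86 to 7.83 in the others, so its group means spread over a wider range than those of CCS. For ARPN they were AT1G18180 (r = 0.994), RR16, a response regulator of cytokinin signalling (r = 0.993), AT3G12710 (r = 0.992), AT1G15260 (r = 0.991) and AT2G34810 (r = 0.990). RR16 averaged 9.02 in dcl1-7 inflorescence, 8.19 to 8.55 in the other inflorescence groups and 6.40 to 6.92 in leaf groups. These correlations describe 9 means. For ARPN the organ difference makes up most of the range, and for CCS the dcl1-7 groups held the highest means (11.18 in leaf and 10.65 in inflorescence). The genes were picked by this correlation, so their likeness to CCS or ARPN is not a separate result.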

How the data were processed

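Per the labels, the deposited values are log2 expression summaries made by the authors with RMA, which corrects background, normalizes across arrays and combines probes, as the submitters' processing notes name it. The log2 scale was read from the values. The sources used here do not give the RMA version or say whether both organs were normalized together. RMA compresses differences of weak signals and equalizes arrays. Arrays carry no read depth, so the number of arrays limits the precision.

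Of 22810 probe sets, 64 controls were left out and 22746 tested, with no filter on low signal. GEO's platform annotation gives 1 symbol for 13513 of them, several for 503 and none for 8730. Loci came from a RefSeq table of assembly TAIR10.1, which 13436 probe sets matched. No genome build is named for the values, so no coordinates are given.

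Group means were fitted in R 4.3.3 by limma 3.58.1 (lmFit and eBayes, two-sided) over the 12 leaf or 15 inflorescence arrays, and over all 27 for organ comparisons and interactions, after a test on simulated data. A gene with several probe sets is represented by that of highest mean. Listed genes were named where called in a mutant comparison, and the 5 most correlated genes for each member. The members and lists were chosen with earlier results of these data known. No list test was run. Replicate numbers follow accession order and pair no samples.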

Additional observations from a re-analysis of the deposited data

Results flagged for a closer look

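The rdr6-15 effect on ARPN differed between organs by −0.92 in a test of the interaction (limma adjusted p = 0.0419). ARPN was lower in all 3 rdr6-15 inflorescences than in all 3 set A inflorescences, and the rdr6-15 and Col-0 leaves overlapped. With set B as the inflorescence control the same test gave 0.04 (adjusted p = 0.919).

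The dcl1-7 effect on CCS also differed between organs, by −0.70 with set B as the inflorescence control (adjusted p = 0.0386), and was larger in leaf. With set A the same test gave −0.32 (adjusted p = 0.411). The dcl4-2 effects differed between organs with set B, which is not the control the labels name for dcl4-2, by −0.902 in CCS (adjusted p = 0.00474) and 0.681 in ARPN (adjusted p = 0.0304). With set A these were −0.52 (adjusted p = 0.69) and −0.29 (adjusted p = 0.928). Groups of 3 arrays were not examined for single outlying arrays by a formal rule.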

How the results depend on the processing

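The 20 differences of CCS and ARPN were recomputed under 214 alternatives in all, of which 184 kept direction and side of the threshold, 20 lost the call, 4 gained one and 6 turned the direction. Leaving out single arrays gave 0.588 to 0.93 for ARPN in dcl1-7 leaf, −0.738 to −0.477 for CCS in dcl4-2 inflorescence and 0.37 to 0.58 for CCS in dcl1-7 inflorescence against set B, each with some calls lost. Fits of only the arrays compared lost these 3 calls as well (values of 0.805, −0.626 and 0.477), and called CCS in rdr6-15 inflorescence (−0.239). A fit of all arrays lost both CCS calls in inflorescence (−0.626 in dcl4-2 and 0.477 in dcl1-7). For ARPN in dcl1-7 leaf the call was also lost without the array of highest control 3' minus 5' difference (0.856) and with that difference as a covariate (0.918), both chosen after seeing the data. Centring on array medians called CCS in Col-0 inflorescence minus leaf (−0.376). The cause of these changes was not tested.

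With the other Col-0 set as control, ARPN turned to 0.907 in dcl4-2 and 0.283 in rdr6-15 inflorescence, CCS was called in rdr6-15 (−0.62) and was at 0.17 between Col-0 organs, and the dcl1-7 interactions were at −0.318 for CCS and −0.382 for ARPN. The interactions of the other mutants with set B, added after seeing the data, turned for ARPN to 0.681 in dcl4-2 and 0.044 in rdr6-15, and that of CCS in dcl4-2 was called (−0.902). Against set A, dcl1-7 differed by 0.6 in MT1C, −0.204 in APS3 and −1.585 in sks18, each of opposite sign to set B. No paired analysis was possible because the labels number the arrays in 1 run and give no replicate numbers shared between groups. Signal over background is not part of the deposited values, so no limit for weak signals is given.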
